A study of Mus musculus with 7 samples.

Results

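The regions described are 1505 intergenic stretches of the mouse genome that carried a peak of acetylated lysine 27 of histone H3 (H3K27-Ac) in each of 3 skin tumour cell clones and whose midpoint lay outside coding genes but within reach of one. They were chosen by the peak lists themselves and by position. Peaks of the 3 lists on chromosomes 1 to 19 were merged wherever they overlapped by at least 1 bp, which gave 56903 regions, and 15462 of these were overlapped by a peak of all 3 clones, a share of 27.2%. From these 15462 shared regions, those were kept whose midpoint lay outside every protein-coding gene body, over 5 kb from any GENCODE transcript start and at most 100 kb from the nearest protein-coding transcript start. The 1505 regions that passed were 9.73% of the shared regions (95% Wilson interval 9.28% to 10.2%), beside 11309 promoter-proximal regions with a midpoint within 5 kb of a start, 2270 intragenic regions and 378 intergenic regions farther than 100 kb from a coding start. At their edges 20 of the 1505 (1.33%) overlapped a coding gene body. That a region has a peak in every clone and its distance from a start are therefore properties of the choice and not results.

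The clones came from 3 independent skin tumours of Cdkn2ab-/- mice on a mixed background, an FVB/129P2 backcross in the words of the labels. In these mice the locus of p15Ink4b, p16Ink4a and p19Arf, inhibitors of cell cycle progression and of p53 degradation, was inactivated in the germline, with Act-Cre used to recombine the p19Arf part. All 3 clones carried this genotype and there was no treated or wild-type group. Cells of each tumour were grown in primary culture, selected for growth in soft agar and picked as a clone, so each list stands for 1 clone of cells able to grow without anchorage. There were 4 H3K27-Ac libraries, with 2 of them pooled by the authors for clone 3, and 3 IgG libraries, 1 of clone 1 and 2 of clone 3. The cell lines are described as carrying a gain of FVB/N chromosome 15.

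H3K27-Ac is placed by the acetyltransferases p300 and CBP on nucleosomes next to active enhancers and promoters. An enhancer is bound by transcription factors on a short stretch of open DNA and raises transcription of a gene on the same chromosome, often over many kilobases. The acetylated nucleosomes lie on either side of that open stretch. AP-1, a dimer of Fos and Jun family proteins, is a frequent binder of enhancers in keratinocytes and fibroblasts and acts downstream of growth factor signalling.

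The 4 regions with the strongest signal are shown first, as those in which the mark was highest. Strength was ranked by the number of ChIP reads stacked at the summit of the peak, as a percentile among the 1505 regions in each clone and then averaged over clones. Each line gives the nearest coding gene, the position on GRCm38 and 300 bases of the forward strand centred on the median summit of the 3 clones, in lower case because none holds the AP-1 motif TGANTCA.
Zfp869, chr8:69716554-69716853: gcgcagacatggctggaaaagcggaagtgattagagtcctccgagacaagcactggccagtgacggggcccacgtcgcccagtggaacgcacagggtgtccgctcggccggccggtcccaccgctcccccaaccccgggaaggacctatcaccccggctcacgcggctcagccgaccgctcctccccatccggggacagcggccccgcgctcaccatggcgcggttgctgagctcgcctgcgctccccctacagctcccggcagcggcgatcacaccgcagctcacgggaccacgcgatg
Slc38a2, chr15:96710052-96710351: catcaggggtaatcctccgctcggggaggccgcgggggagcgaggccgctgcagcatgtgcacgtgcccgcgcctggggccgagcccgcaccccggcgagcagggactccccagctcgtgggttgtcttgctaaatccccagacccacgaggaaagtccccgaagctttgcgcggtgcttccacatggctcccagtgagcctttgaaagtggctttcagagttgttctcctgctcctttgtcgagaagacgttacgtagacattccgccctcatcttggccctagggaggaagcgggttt
Ppara, chr15:85669075-85669374: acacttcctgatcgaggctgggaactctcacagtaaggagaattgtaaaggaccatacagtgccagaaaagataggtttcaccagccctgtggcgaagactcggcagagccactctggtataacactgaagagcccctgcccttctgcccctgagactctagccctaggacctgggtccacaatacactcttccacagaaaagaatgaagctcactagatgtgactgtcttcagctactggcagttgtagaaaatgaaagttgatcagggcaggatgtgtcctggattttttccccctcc
Chd2, chr7:73617920-73618219: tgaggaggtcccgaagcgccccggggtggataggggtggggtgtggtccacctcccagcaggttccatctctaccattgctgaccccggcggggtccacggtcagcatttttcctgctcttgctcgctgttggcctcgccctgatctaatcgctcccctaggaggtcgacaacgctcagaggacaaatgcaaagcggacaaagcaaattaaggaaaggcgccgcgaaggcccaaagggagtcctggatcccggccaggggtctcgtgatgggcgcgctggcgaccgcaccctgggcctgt
The windows near Zfp869, Slc38a2 and Chd2 had a GC content of 70.3%, 63.0% and 63.0%, and the window near Ppara one of 50.0%. Over all 1505 regions the GC content of this window was 52.0% ± 6.24 (SD). Zfp869 encodes a zinc finger protein, Slc38a2 an amino acid transporter, Chd2 a chromatin remodeller and Ppara a nuclear receptor that controls fatty acid oxidation.

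The region whose 300 bp window held the most AP-1 matches is shown next, with the 3 strongest of the 15 regions that held 2, and each match is in capitals. The motif reads the same on both strands.
Trim33, chr3:103263051-103263350: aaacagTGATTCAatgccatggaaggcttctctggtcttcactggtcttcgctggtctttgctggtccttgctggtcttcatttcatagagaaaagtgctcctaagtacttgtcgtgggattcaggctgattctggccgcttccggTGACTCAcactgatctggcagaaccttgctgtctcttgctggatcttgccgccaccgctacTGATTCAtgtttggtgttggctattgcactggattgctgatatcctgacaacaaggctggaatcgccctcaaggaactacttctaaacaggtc
Insyn1, chr9:58447760-58448059: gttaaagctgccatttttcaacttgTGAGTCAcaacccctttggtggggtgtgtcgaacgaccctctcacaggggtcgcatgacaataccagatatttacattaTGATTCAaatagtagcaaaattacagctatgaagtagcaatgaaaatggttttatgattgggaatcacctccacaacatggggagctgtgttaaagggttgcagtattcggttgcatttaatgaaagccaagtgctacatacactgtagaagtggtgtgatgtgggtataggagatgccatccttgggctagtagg
Efcab1, chr16:14885424-14885723: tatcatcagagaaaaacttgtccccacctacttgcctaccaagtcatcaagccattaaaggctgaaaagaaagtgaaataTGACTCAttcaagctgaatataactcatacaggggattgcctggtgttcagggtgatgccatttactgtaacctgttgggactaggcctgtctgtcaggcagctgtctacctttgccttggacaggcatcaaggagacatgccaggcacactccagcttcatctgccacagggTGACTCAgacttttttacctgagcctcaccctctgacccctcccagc
Arhgap27, chr11:103311963-103312262: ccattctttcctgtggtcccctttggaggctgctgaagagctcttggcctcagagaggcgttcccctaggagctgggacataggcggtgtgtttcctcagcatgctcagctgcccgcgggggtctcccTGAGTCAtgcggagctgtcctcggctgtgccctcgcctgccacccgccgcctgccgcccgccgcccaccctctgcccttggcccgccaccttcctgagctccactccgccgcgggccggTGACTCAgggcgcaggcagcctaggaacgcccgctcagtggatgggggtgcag
The window near Trim33, which encodes a ubiquitin ligase that acts on SMAD proteins, held 3 matches and the other 3 held 2 each. Of all 1505 windows, 1325 held none, 164 held 1, 15 held 2 and 1 held 3. The ranks of these 4 regions by strength ran from 341 for Insyn1 to 669 for Arhgap27.

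The lists held 28641, 48925 and 28798 peaks on chromosomes 1 to 19 for clones 1, 2 and 3. The number of ChIP reads at each summit is not given in them and was recovered from the deposited fold enrichment and p-value, which returned whole reads within 0.01 read for 100% of peaks. The weakest listed peaks rested on 13, 12 and 25 reads, so a weaker site is not listed in that clone. Neither targeted gene had a promoter peak in any clone, although the annotated body of Cdkn2a held 1, 2 and 2 peaks in clones 1, 2 and 3. The tumours of origin were carcinomas, yet of 7 epithelial markers (Krt5, Krt14, Krt8, Krt18, Cdh1, Epcam and Trp63) none had a promoter peak in every clone and 6 had none in any, Krt14 having 42 reads in clone 1 alone. Of 9 mesenchymal markers 4 had a promoter peak in every clone, namely Vim, Pdgfrb, Twist1 and Prrx1, beside 47.3% of all coding genes. Col1a1, Col1a2 and Pdgfra had one in clones 1 and 2 only, Col3a1 in clone 3 alone and Thy1 in none. These marker counts are descriptions and do not settle the cell type. Of 18 markers of other cell types 14 had none in any clone, and Mitf and Pmel had one in all.

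The 1505 intergenic regions carried less acetylation than promoters and a level close to that of the other distal regions. The median region had 41 reads at its summit in clone 1, 65 in clone 2 and 59 in clone 3. Promoter-proximal shared regions had medians of 87, 210 and 77 reads. The intergenic median was thus 0.471, 0.310 and 0.766 times the promoter-proximal one in clones 1, 2 and 3, a geometric mean of 0.482 (mean log2 ratio -1.05 ± 0.65, SD, n = 3 clones). The direction was the same in 3 of 3 clones, and the exact two-sided paired permutation test gave p = 0.25, the smallest value that 3 clones allow. Clone 2 had the steepest contrast and clone 3 the flattest.

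Against intragenic regions, with medians of 39, 56 and 57 reads, the ratio was 1.05, 1.16 and 1.04 (geometric mean 1.08, exact permutation p = 0.25). Against intergenic regions beyond 100 kb, with medians of 37, 46 and 60 reads, it was 1.11, 1.41 and 0.983 (geometric mean 1.15, exact permutation p = 0.50). Of these 6 ratios only that beyond 100 kb in clone 3 fell below 1. Only 75 of the 1505 regions exceeded the promoter-proximal median in every clone, 4.98%.

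**Figure D1:**
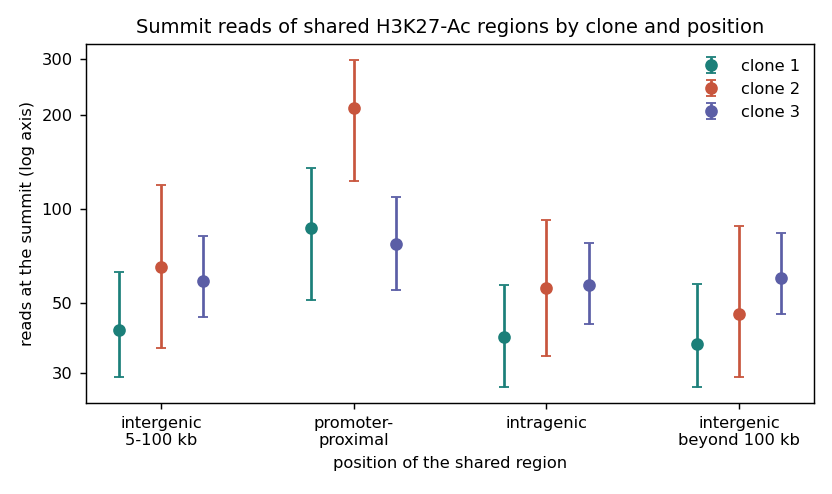
Reads at the summit of regions shared by the 3 clones (log axis), by position of the region, with 1 point per clone at the median and bars from the lower to the upper quartile. The intergenic regions at 5 to 100 kb sit at 41, 65 and 59 reads, below the promoter-proximal medians of 87, 210 and 77 reads and near the other distal medians.

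The density of the regions varied little over the first 50 kb from a coding start. The median distance to the nearest coding start was 29.6 kb (95% interval 27.8 to 31.1 kb). To read such distances, every 1 kb of the genome that satisfies the same position limits was counted as eligible sequence, 486.3 Mb in all. Per Mb of eligible sequence there were 3.39 regions at 5 to 10 kb from the start, 3.50 at 10 to 20 kb, 3.32 at 20 to 30 kb, 3.29 at 30 to 50 kb and 2.52 at 50 to 100 kb. The median summit reads were 46, 78 and 58 in clones 1, 2 and 3 at 5 to 10 kb and 38, 61.5 and 58.5 at 50 to 100 kb, lower in the farther bin in clones 1 and 2 and nearly level in clone 3. In the bins between them they were 40 to 43.5, 60.5 to 68 and 58 to 62. Of the regions, 66.2% lay upstream of their nearest coding gene (95% Wilson interval 63.8% to 68.5%). Of the eligible sequence 66.5% did so too, since much of the sequence downstream of a start is gene body, and the density was 3.08 regions per Mb upstream and 3.13 downstream.

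The nearest coding gene usually had an acetylated promoter. For 1082 of the 1505 regions, 71.9% (95% Wilson interval 69.6% to 74.1%), that gene had a peak within 1 kb of a coding transcript start in all 3 clones. Of 20722 autosomal coding genes 47.3% had such a promoter, and of the eligible sequence 41.0% had such a gene nearest. Sequence nearest to a gene with an acetylated promoter held 5.42 regions per Mb, against 1.48 per Mb where the nearest gene lacked one in at least 1 clone. The difference was present in each distance bin. It was 6.58 against 1.55 per Mb at 5 to 10 kb and 6.86 against 1.43 at 10 to 20 kb. It was 5.70 against 1.72 at 20 to 30 kb, 5.76 against 1.48 at 30 to 50 kb and 4.00 against 1.35 at 50 to 100 kb. Promoter peaks and intergenic regions were read from the same libraries. Other classes of shared region had shares of 82.0% (intragenic) and 73.0% (beyond 100 kb).

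The 1505 regions had 1084 different nearest genes, of which 69.8% had a promoter peak in every clone. The share was 68.1% for the 795 genes with 1 region, 72.7% for the 209 with 2 and 80.0% for the 80 with 3 or more. Among genes with an acetylated promoter, the promoter itself was stronger where a region lay nearby: its median was 126, 269 and 95 reads in clones 1, 2 and 3 for genes with a region and 102, 244 and 84 reads for genes with none. For 252 regions, 16.7%, the nearest gene had no promoter peak in any clone. Of the 423 whose nearest gene lacked one in at least 1 clone, 242 still lay within 100 kb of another start that had one.

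**Figure D2:**
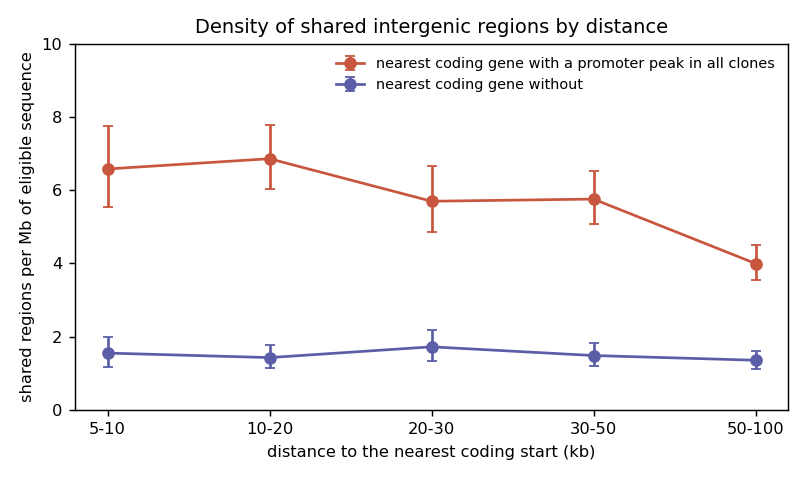
Number of the shared intergenic regions per Mb of eligible sequence, by distance to the nearest coding start and by whether that gene had a promoter peak in every clone. Bars are 95% Poisson intervals and cover counting error only; densities lie between 4.00 and 6.86 per Mb with such a promoter and between 1.35 and 1.72 per Mb without.

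The 10 strongest regions lay near genes of many kinds. The first, chr8:69715584-69717747, lay 5.94 kb upstream of the GENCODE start of Zfp869 and had the highest count of all 1505 in each clone, with 339, 454 and 261 reads in clones 1, 2 and 3. In clone 1 the next of all regions, near Krt78, had 236 reads, and in clones 2 and 3 the next had 419 and 253. RefSeq places the 5′ end of Zfp869 402 bp from its midpoint, so the distance rule holds there for GENCODE and not for RefSeq. No promoter peak was called at the GENCODE start of this gene in any clone.

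The region at chr15:96708846-96710912 lay 10.1 kb upstream of Slc38a2 and had 213, 397 and 183 reads. Its gene had a promoter of 287, 460 and 227 reads, which was higher in every clone. The region at chr15:85662089-85673387, 67.8 kb upstream of Ppara and inside the non-coding gene Lncppara, had 216, 370 and 182 reads. The Ppara promoter had a peak in clone 2 alone, of 40 reads. At chr7:73614587-73619979, 75.5 kb upstream of Chd2, the summit had 203, 415 and 168 reads.

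The other 6 were nearest to Nanos3, which encodes an RNA-binding protein of germ cells, Tacc1, a centrosomal protein, Tpt1, a translationally controlled growth protein, Cstad, Zfp827 and Man1c1, a mannosidase of the Golgi. Near Nanos3 the region at chr8:84190571-84193915 had 221, 297 and 232 reads while the gene had no promoter peak in any clone. Near Tpt1 the region at chr14:75833160-75835923 had 186, 419 and 165 reads and the promoter 267, 440 and 179. Both patterns thus occurred among the strongest. Of the 10 nearest genes 8 had a promoter peak in at least 1 clone, close to the 81.6% of all 1084 nearest genes. Of the 10, 4 lay on chromosome 8, which held 79 of the 1505 regions.

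A group of the strongest regions had the base composition of a CpG island. In a 1 kb window at the summit, 81 regions (5.38%) had a GC content of at least 50% and an observed over expected CpG ratio of at least 0.6, compared with 67.7% of promoter-proximal and 1.06% of intragenic regions. These 81 had median summit reads of 96, 217 and 89 in clones 1, 2 and 3, against 40, 61 and 58 for the other regions. By quartile of strength the share was 0.266%, 2.13%, 2.93% and 16.2% from weakest to strongest. A boundary of a RefSeq gene lay within 1 kb of the midpoint of 190 regions (12.6%), 69 of them in the top quartile of strength. For 16 it was the 5′ end of a gene that GENCODE also names. For RefSeq genes that GENCODE does not name, which end it was had not been determined, so more may lie at a 5′ end. Without the 190, the ratio to promoter-proximal signal was 0.468.

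Regions gathered near a few genes. Counting the nearest coding gene, 10 regions belonged to Irf2bp2, 7 each to Col5a1 and Socs3, 6 each to Arntl, Ddit4 and Irf2bpl, and 5 each to Csf1, Errfi1, Ppara and Wnt11. These genes had 40 to 138 kb of eligible sequence, which gave 54.9 to 175 regions per Mb, against 3.09 over all eligible sequence. They were picked for their counts, so the density is a description.

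Irf2bp2 encodes a transcriptional corepressor that binds IRF2. Its 10 regions lay from 9.77 to 93.4 kb from the start, 6 upstream and 4 downstream. Summit reads spanned 34 to 180, 27 to 258 and 44 to 180 for clones 1, 2 and 3. The strongest of them, chr8:126613234-126616970 at 21.1 kb upstream, had 129, 258 and 126 reads and ranked 36 of 1505. The Irf2bp2 promoter had 243, 400 and 157 reads. The paralogue Irf2bpl had 6 regions, all downstream, from 6.04 to 59.3 kb away. Of these chr12:86823036-86828014 was the strongest with 114, 128 and 100 reads, and the weakest, chr12:86878477-86879044, had 24, 21 and 30.

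Socs3 encodes a feedback inhibitor of JAK-STAT signalling. Of its 7 regions 6 formed the largest group in which neighbours lay within 10 kb of each other, spanning 33.3 kb downstream of the gene at chr11:117931639-117964967. The strongest member at 19.2 kb had 137, 279 and 126 reads, above the promoter of the gene, which had 122, 174 and 71. The weakest at 14.9 kb had 19, 43 and 30 reads, close to the lowest listed in clone 1. Over the 6 regions summit reads added up to 437, 773 and 446.

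Col5a1 encodes a chain of type V collagen, a matrix protein of connective tissue. Its 7 regions all lay upstream, from 21.7 to 84.0 kb, and spanned 31 to 73, 53 to 170 and 32 to 99 reads for clones 1, 2 and 3. The strongest, chr2:27857829-27859889, had 73, 152 and 77 reads. The promoter had 159, 242 and 72 reads, and in clone 3 the regions with 77 and 99 reads exceeded it.

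Ddit4 (REDD1) encodes a stress-induced inhibitor of mTORC1 and had 6 regions, 5 of them downstream, of which chr10:59918301-59921920 had 110, 94 and 104 reads. Arntl (BMAL1) encodes a transcription factor of the circadian clock and had 6 regions, all upstream. Of these chr7:113184102-113187453 had 86, 70 and 134 reads. At Arntl clone 2 was low, with a median of 33 reads over its 6 regions against 63 in clone 1 and 54 in clone 3, whereas at Errfi1 clone 2 was high.

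Errfi1 encodes an inhibitor of the EGF receptor. Its 5 regions had a median of 49, 167 and 71 reads, and 4 lay upstream. Csf1, the growth factor of macrophages, had 5 regions of which chr3:107730727-107733884 was the strongest with 68, 100 and 113 reads. Wnt11, a WNT ligand, had 5 regions of 23 to 89 reads in clone 1, although its promoter had a peak in clone 2 alone, of 38 reads. The highest-ranked of the 5, chr7:98814601-98815481, had its midpoint 374 bp from a boundary of a RefSeq tRNA gene. Which gene these regions act on was not tested. Wnt11 and Ppara were the 2 of the 10 genes without a promoter peak in every clone.

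**Figure D3:**
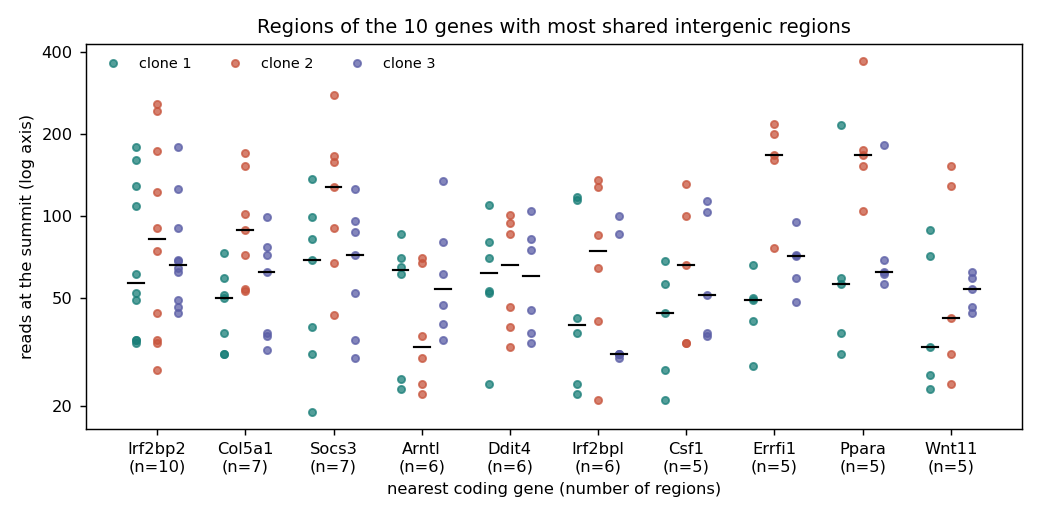
Reads at the summit (log axis) of each region whose nearest coding gene is 1 of the 10 with most regions, by clone, with a black line at the median of the regions in that clone. Clone 2 lies highest at Errfi1 and Ppara, with medians of 167 and 168 reads, and lowest at Arntl, with 33.

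Over all 1505 regions, those of these 10 genes included, 28.4% lay within 10 kb of another (95% Wilson interval 26.2% to 30.8%). They formed 156 pairs, 20 groups of 3, 10 of 4, 2 of 5 and 1 of 6, and 1077 regions stood alone. After Socs3 the largest groups were 5 regions over 26.98 kb upstream of Ppara and 5 over 24.8 kb between Irf2bp2 and Tarbp1. The midpoint of 142 regions (9.44%) lay in a non-coding gene, of which 82 were lincRNAs, and Lncppara held 5 of them. The median region measured 1470 bp, with 953, 980 and 950 bases under peaks in clones 1, 2 and 3.

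Chromosome 15 held 108 of the regions, 5.68 per Mb of eligible sequence, the highest density of the 19 chromosomes, and chromosome 11 followed with 4.81. Chromosome 6 was lowest with 2.20. The median summit reads of regions on chromosome 15 were 46.5, 101 and 70.5 in clones 1, 2 and 3, or 1.13, 1.58 and 1.22 times those on the other chromosomes. For promoter-proximal regions the same ratio was 1.17, 1.11 and 1.23. Raised reads were not particular to chromosome 15. Relative to the median of all the intergenic regions, chromosome 8 stood at 1.22, 1.26 and 1.27 and chromosome 15 at 1.13, 1.55 and 1.19. Chromosome 8 was thus the higher in clones 1 and 3. The local background at the summit was also higher on chromosome 15, with medians of 1.34, 1.42 and 3.00 control reads against 1.00, 1.00 and 2.00 elsewhere. Which control was used for the clone 2 list is not given in the sources used here. The gain of this chromosome in the cell lines and the values given here for it cannot be told apart.

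Between 79 and 87 Mb of chromosome 15 there were 25 regions with 17 nearest genes. Wnt7b, a WNT ligand of hair follicles, had 3 of them, all upstream. The region at chr15:85634324-85635643, 52.5 kb from the start, had 172, 375 and 123 reads and ranked 19 of 1505. Its midpoint lay 388 bp from a boundary of the RefSeq non-coding gene D130051D11Rik. The regions at 17.5 and 28.9 kb, chr15:85598859-85601074 and chr15:85609995-85612808, had 26, 176 and 55 reads and 41, 156 and 46 reads. Medians over all shared regions differed between clones, and divided by the median over all shared regions of each clone these were 0.382, 1.09 and 0.775 at 17.5 kb and 0.603, 0.969 and 0.648 at 28.9 kb. Clone 2 was highest in both on either scale. The Wnt7b promoter had a peak in clone 2 alone, of 27 reads. The 5 regions of Ppara followed directly, so that 8 regions lay between 85598859 and 85689073. Pdgfb, which encodes a growth factor for mesenchymal cells, had 1 region with 54, 163 and 99 reads at 10.8 kb upstream and a promoter peak of 28 reads in clone 2 alone.

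Genes of known programmes were then looked up as the nearest gene. Over all 20722 coding genes 5.23% had a region. The lists were drawn up with earlier results of these data known, so their counts are descriptions.

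AP-1 genes had 8 regions at 4 of 13 genes. Fos and Fosb, immediate early genes, had 3 each and Jun and Jdp2 had 1 each. The region 12.7 kb downstream of Fos, chr12:85485116-85487985, had 129, 343 and 150 reads and ranked 15. The one 18.4 kb upstream had 160, 215 and 183 reads and ranked 20. The regions of this list were strong, with medians of 67.5, 107.5 and 73.5 reads against 41, 65 and 59 over all regions. Of the 13 genes 11 had a promoter peak in every clone.

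Genes of TGF-β and Hippo signalling had 18 regions at 10 of 28 genes, and 27 of the 28 had a promoter peak in every clone. Smad3, a signal transducer of TGF-β, had 4 regions upstream, the strongest of which, chr9:63810062-63811333, had 68, 141 and 81 reads. Ccn1, a target of YAP and TEAD, had 3 regions of 22 to 56 reads in clone 1. The inhibitors Smad7 and Smad6 had 1 region each, with 108, 188 and 95 reads and 65, 218 and 110 reads. Ankrd1, another target of YAP, had 2, and that at 9.41 kb had 40, 235 and 114 reads. Amotl2 and Tgfbr3 had 2 each. The medians of the list were 35, 45.5 and 56 reads, below those of all regions in each clone.

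Growth factor receptors, ligands and their feedback inhibitors had 19 regions at 11 of 31 genes. Beside Errfi1, Dusp6, a phosphatase of ERK, had 4 regions and the sprouty inhibitor Spry1 had 2. Epha2, an ephrin receptor, had 1 with 134, 170 and 93 reads at 13.7 kb upstream. Fgfr1 had 1 with 107, 221 and 86 reads. Clone 2 was high for this list, with a median of 125 reads against 65 over all regions, while clones 1 and 3 had 48 and 80.

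Wnt pathway genes had 16 regions at 8 of 46 genes. Apart from Wnt11 and Wnt7b, Fzd4 (a receptor) and Tcf7l2 (a transcription factor of the pathway) had 2 regions each and Wnt10a, Nkd1, Fzd5 and Wnt4 had 1 each. Those of Tcf7l2 spanned 349.3 kb and had different transcript starts of the gene nearest to them. Measured from these starts they lay 98.1 kb upstream and 93.5 kb downstream, with 29, 67 and 44 reads and 25, 75 and 37 reads. Most regions of the list were weak in clone 1, where its median was 30.5 reads against 41 over all regions. In clones 2 and 3 it was 71 and 54.5.

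Cell cycle genes had 6 regions at 6 of 26 genes, 1 each. Near Cdkn2b, at the locus inactivated in these cells, the region chr4:89350726-89351731 lay 40.2 kb upstream and had 30, 28 and 71 reads. Cdk6, a kinase that p15Ink4b and p16Ink4a inhibit, had a region of 62, 37 and 103 reads at 40.3 kb upstream. In both, clone 3 had the highest count. Myc had 64, 121 and 80 reads at 62.1 kb downstream. Mdm2, the ubiquitin ligase of p53, had 77, 71 and 103 reads at 6.99 kb upstream, and Ccnd1, which encodes cyclin D1, had 27, 64 and 38. Cdkn1b had the weakest, with 26, 17 and 32 reads.

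Epidermal and hair follicle transcription factors had 13 regions at 7 of 31 genes. Ets2 had 4 and Cebpb 3, of which chr2:167759477-167767114, 74.4 kb downstream of Cebpb, had 150, 379 and 101 reads. Dlx3, a homeobox gene of the epidermis, had 2 regions with no promoter peak in any clone, and chr11:95095505-95102819 among them had 61, 150 and 84 reads. Tfap2c, which encodes AP-2γ, had a strong region of 120, 157 and 143 reads at 93.1 kb downstream, again with no promoter peak in any clone. Trp63 had a single weak region of 28, 33 and 63 reads at 98.4 kb.

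Keratin, adhesion and basement membrane genes had 8 regions at 6 of 35 genes, and 8 of the 35 had a promoter peak in every clone. Krt8 and Itga3, an integrin chain, had 2 regions each, and Cd44, Col4a1, Epcam and Perp had 1 each. The region 20.4 kb downstream of Krt8 had 110, 149 and 114 reads although the Krt8 promoter had no peak in any clone. The region 43.7 kb upstream of Cd44, a hyaluronan receptor, had 176, 76 and 156 reads, high in clones 1 and 3 and near the median in clone 2.

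Mesenchymal and matrix genes had 23 regions at 10 of 32 genes, the most of any list, with Col5a1 first. Spp1 (osteopontin) and Col6a2, a chain of collagen VI, had 3 regions each. The strongest at Spp1 had 81, 31 and 145 reads, so clone 2 was lowest. Snai1 (Snail), Col1a1 and Col1a2 had 2 each, and Sparc, Twist1, Twist2 and Zeb2 had 1 each. The region 5.35 kb upstream of Sparc had 83, 67 and 138 reads. Markers of other cell types had 2 regions at 2 of 18 genes, Cdh5 with 39, 40 and 77 reads and Dct with 34, 135 and 63 reads, and neither gene had a promoter peak in any clone. The midpoint of the Dct region lay 18 bp from a boundary of a RefSeq tRNA gene. Per Mb of eligible sequence the lists ran from 2.83 for other cell types to 21.6 for AP-1 genes. TGF-β and Hippo genes had 14.6, mesenchymal genes 12.01 and keratin and adhesion genes 8.11. The 95% Poisson intervals were wide, 9.33 to 42.6 for AP-1 genes and 0.343 to 10.2 for other cell types. Those of mesenchymal genes (7.61 to 18.02) and of keratin and adhesion genes (3.50 to 15.99) overlapped. The counts therefore do not rank these lists.

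The sequence of the regions was searched for 18 short motifs, on both strands, in the reference genome. The AP-1 motif TGANTCA was found in 11.96% of the 300 bp windows at the summit (95% Wilson interval 10.4% to 13.7%). In equal windows 2 kb to either side it was found in 9.90% (8.88% to 11.0%), so the intervals overlapped. The share changed with the position of the window. At the midpoint of the merged region the share was 25.0%, and in 1 kb around the summit it was 57.6%, against 28.1% of 1 kb windows centred 2 kb away.

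The profile of matches around the summit had 2 maxima with a dip between them. AP-1 matches numbered 0.558 per kb within 200 bp of the median summit (95% Poisson interval 0.500 to 0.621), 1.23 per kb at 200 to 400 bp (1.14 to 1.32), 0.558 per kb at 400 to 800 bp and 0.331 per kb at 1.5 to 2.5 kb. Measured from the summit of each clone on its own, the density at 200 to 400 bp was 1.25, 0.987 and 1.25 per kb in clones 1, 2 and 3 and within 200 bp it was 0.472, 0.772 and 0.505. The ratio of the former to the latter was 2.64, 1.28 and 2.47 (2.13 ± 0.74, SD, n = 3 clones), above 1 in 3 of 3 clones and least in clone 2. Relative to the density at 1.5 to 2.5 kb, that at 200 to 400 bp was 3.49 ± 0.46 times higher (SD, n = 3).

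This profile was not particular to the 1505 regions. In intragenic regions the same ratio to 1.5 to 2.5 kb was 3.47 ± 0.45 and beyond 100 kb it was 3.57 ± 0.60. In promoter-proximal regions it was 1.13 ± 0.16, and 21.6% of them had a match in 1 kb. Stronger regions did not hold a match more often in the 1 kb around the summit. The median region measured 892.5 bp in the lowest quartile of strength and 2366 bp in the highest, so the window left part of the longer regions unsearched. From the lowest to the highest quartile of strength 61.4%, 59.6%, 57.4% and 52.0% had a match in 1 kb, with an interval of 47.0% to 57.0% in the highest and of 56.4% to 66.2% in the lowest.

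**Figure D4:**
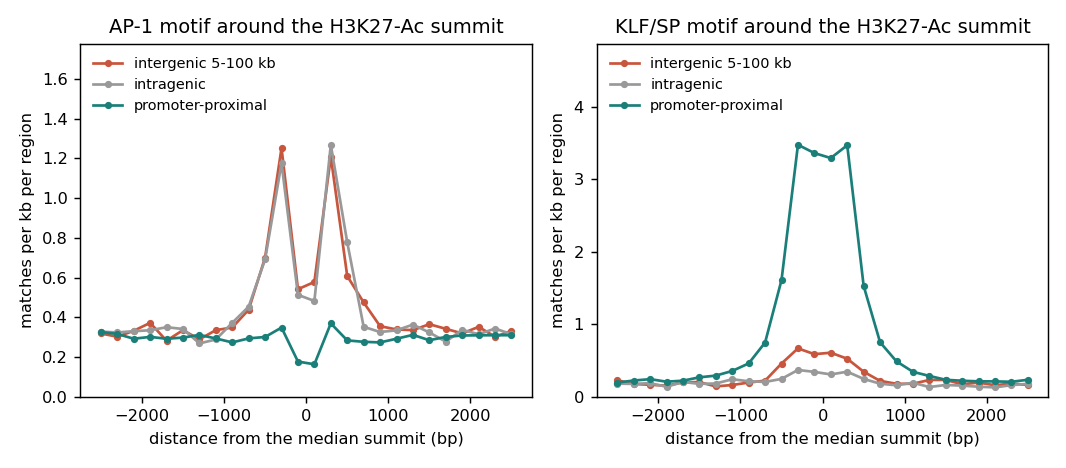
Matches of the AP-1 and KLF/SP motifs per kb of sequence, in 200 bp bins by distance from the median summit, for the shared intergenic regions at 5 to 100 kb, intragenic and promoter-proximal regions. For AP-1 the distal classes peak on both sides at 200 to 400 bp with a dip at the summit. Promoter-proximal regions dip at the summit too, at a lower density. For KLF/SP the promoter-proximal regions reach over 3 matches per kb.

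Of the other motifs, GGGCGG of KLF and SP factors was in 12.9% of summit windows and 4.55% of flanking windows, beside 50.0% of promoter-proximal windows. Around the summits of the 3 clones it had no dip comparable to that of AP-1, since the ratio of its density at 200 to 400 bp to that within 200 bp was 0.961 ± 0.22. The AP-2 motif GCCNNNGGC was in 14.0% against 6.05% of flanks and the ETS motif AGGAAG in 42.9% against 34.2%. These motifs are rich in G and C or in purines, and GC content was 52.0% at the summit and 46.1% in the flanks. The part of base composition in these shares was not tested. The TEAD motif GGAATG was in 17.0% against 14.8%, RUNX TGTGGT in 20.6% against 22.8%, C/EBP TTGCNNAA in 11.4% against 11.0% and SOX ACAATGG in 5.25% against 4.22%.

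The motifs AGATAA of GATA factors (11.2% against 15.05%), NF-Y ATTGG (26.6% against 32.6%), TCF/LEF CTTTGAT (4.32% against 4.52%), FOX TGTTTAC (3.72% against 3.79%) and E-box CAGGTG (18.9% against 21.1%) were no more frequent at the summit than beside it. The CTCF core was in 1.99% against 3.65%. CREB TGACGTCA, grainyhead AACCGGTT and the NFI palindrome were in 0.266%, 0.266% and 0.0664% of the windows. The loose p53 family pair was in 70.4% and in 59.0% of flanks. Of the flanking windows 18.6% still lay under a peak of some clone.

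The regions were less alike between clones than promoters were. The Spearman correlation of summit reads over the 1505 regions was 0.469 between clones 1 and 2, 0.551 between clones 1 and 3 and 0.243 between clones 2 and 3. For the 11309 promoter-proximal regions it was 0.860, 0.787 and 0.741. These are correlations across regions of the same libraries, and regions are not independent replicates. With each clone divided by the median over its class, the median SD of log2 reads between clones was 0.54 for the intergenic regions, 0.29 for promoter-proximal ones and 0.51 for intragenic ones. With each clone divided by the median over all shared regions the SD was 0.65, with quartiles of 0.38 and 1.02, and the SD that counting reads alone would give had a median of 0.21. On that scale 39.4% of regions stayed within 2-fold across clones.

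Clone 2 stood farthest from the others. On the scale of all shared regions 68.6% of the intergenic regions were lowest in clone 2 and 65.98% were highest in clone 3. All 50 regions of largest SD were lowest in clone 2. The lowest counts of the intergenic regions were 14, 14 and 26 reads in clones 1, 2 and 3, and the median of all shared regions was highest in clone 2. The listing threshold therefore lay at a lower divided value in clone 2 than in the other clones. Its part in this order was not tested. On the scale of the intergenic regions themselves the order was less uneven, since 40.9% were then lowest in clone 2, 33.8% in clone 3 and 25.2% in clone 1. Leaving out a clone redrew the regions from the other 2, which gave 1998 without clone 2, 2109 without clone 3 and 1994 without clone 1. On the scale of all shared regions the median SD between the remaining 2 clones was then 0.38, 0.50 and 0.71. These values rest on other regions and on 2 clones each, so they do not compare directly with an SD over 3.

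The 5 most uneven regions were nearest to Gm17555, Mcu, Trim33, Prl7d1 and Trim2. The region near Gm17555 had 102, 19 and 205 reads and that 26.2 kb upstream of Mcu, the mitochondrial calcium channel, 68, 15 and 112. In the region near Trim33 shown above with 3 AP-1 matches the counts were 57, 20 and 164. In each of the 5 clone 3 was highest and clone 2 lowest. The 5 most even among the stronger regions were nearest to Cd34, Arid1b, Scd2, Lif and Ankdd1a. The region 59.2 kb upstream of Cd34, a marker of hair follicle stem cells, had 53, 126 and 57 reads, which is 0.779, 0.783 and 0.803 times the median of all shared regions in those clones. The region 41.6 kb downstream of Lif, a cytokine of the interleukin 6 family, had 122, 283 and 120 reads.

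**Figure D5:**
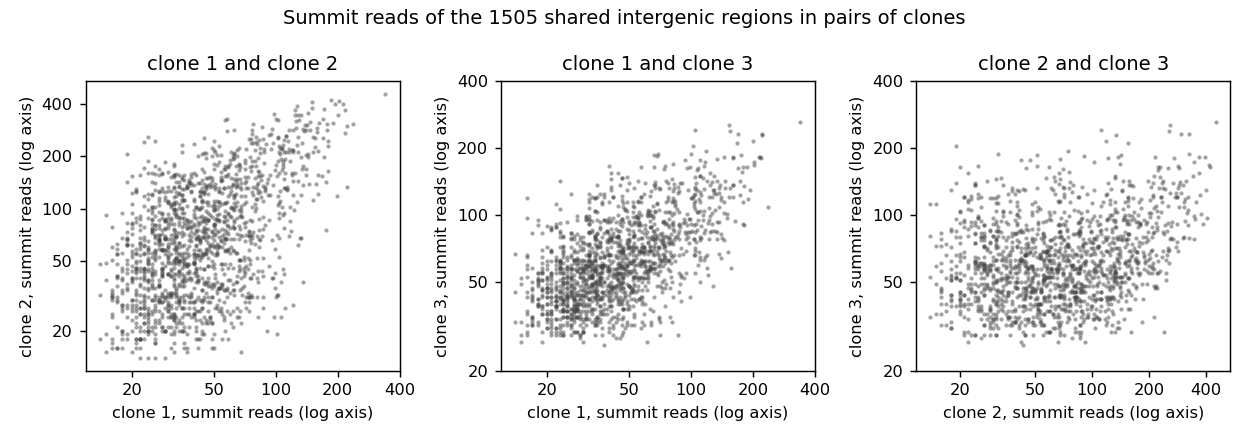
Reads at the summit of each of the 1505 shared intergenic regions in pairs of clones (log axes), with 1 point per region. The points are least aligned for clones 2 and 3, where Spearman's correlation is 0.243, and most for clones 1 and 3, where it is 0.551.

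At the limits of the rule, the regions just inside 5 kb from any start were 5002, 5005 and 5019 bp away (near Irs2, Kif13b and Slc16a1) and those just outside were 4997, 4982 and 4978 bp away (near Pgf, Kcnn4 and Lrrc8c). Just inside 100 kb were regions at 99824, 99774 and 99541 bp (near Cdc42ep3, Pgrmc2 and Fut8). Just outside were regions at 100147, 100148 and 100442 bp (near Hey1, Slc38a6 and Cebpb). The last of these had 83, 241 and 78 reads, more than any of the 3 just inside.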

How the data were processed

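Chromatin of 3 Cdkn2ab-/- skin tumour lines was immunoprecipitated for H3K27-Ac. Alignment of the 65 bp reads to GRCm38 was done by the authors in bowtie2, and MACS2 2.1.1 (per the labels) gave 1 peak list per clone, the 2 libraries of clone 3 being pooled. Peak names mention a filter for allelic mapping bias in clones 1 and 2 only. No IgG library of clone 2 was used here, and the control behind its list is not given in the sources used here. The deposited lists give for each summit the fold enrichment, a ratio of ChIP pileup to local background, and −log10 values of p and q. Summit reads were solved from fold enrichment and p (tested on simulated data). A list holds only sites past the threshold. Library totals are not given in the sources used here.

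Peaks on chromosomes 1 to 19 were merged and classed with GENCODE M21 (GRCm38) in Python 3.11.15, numpy 2.4.6, pandas 2.3.3 and scipy 1.17.1, with figures from matplotlib 3.10.9. Sequence came from the RefSeq copy of GRCm38, and coordinates count from 1. Promoter peaks lay within 1 kb of a coding transcript start. Eligible sequence was counted in steps of 1 kb. Intervals are Wilson or Poisson at 95% and cover counting error only. With 1 condition there was no test between groups, and clones were compared by an exact paired permutation test or by SD. Members and lists were chosen with earlier results of these data known. Named were the 10 strongest regions, the 10 genes with most regions, up to 5 genes per list, the 5 most and least even regions, those at 79 to 87 Mb of chromosome 15 and those at the limits, and other listed genes in the text were picked with their values in view. The alternatives tried were a stricter −log10 q (5 or more), equal peak numbers, summits within 250 bp, other distances, windows and scales, and leaving out each clone.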

Additional observations from a re-analysis of the deposited data

How the results depend on the processing

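Of 101 alternative values of the 9 main results, 64 stayed within the interval, the SD between clones or the 1.5-fold range of the main value and 37 moved. A reversal was defined only for the ratio of signal to promoter-proximal regions, and none of its values reversed. The median distance stayed between 27.8 and 29.9 kb wherever it was recomputed. The ratio of signal to promoter-proximal regions, 0.482, stayed within the wide SD between clones but was 0.747 with bases under peaks, 0.377 without clone 3 and 0.610 without clone 2. With a −log10 q of at least 5, 925 regions were left (7.78% of shared regions), of which 19.7% lay within 10 kb of another. With summits within 250 bp, 785 were left (7.70%), 15.7% within 10 kb of another and 9.94% with an AP-1 match at the summit. With equal peak numbers these shares were 8.76% of shared regions and 25.7% within 10 kb. The share of shared regions was 12.3%, 6.64% and 7.13% with limits of 2 kb or 10 kb from any start and of 50 kb from a coding start, and the share upstream was 68.8% under the last and 61.4% with any transcript of a coding gene. Within 5 kb and 20 kb of another lay 19.1% and 37.5%. A promoter peak over the start base gave 58.8%. AP-1 windows at the midpoint, of 1 kb, or with C or G in the middle gave 25.0%, 57.6% and 8.37%. The spread was 0.75 when divided by the promoter-proximal median and, as chosen after seeing the data, 0.54 when divided by the members' median. Leaving out regions near a RefSeq boundary, also chosen then, gave 8.50% of shared regions and 25.3% within 10 kb of another.

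Leaving out each clone in turn gave 1994 to 2109 regions, 10.8% to 11.2% of shared regions, 32.3% to 41.8% within 10 kb of another, 71.0% to 75.5% with a promoter peak at the nearest gene, 13.8% to 17.9% with an AP-1 match and a spread of 0.38 (without clone 2) to 0.71. In these the causes were not tested, beyond the larger number of regions shared by fewer clones. No paired analysis was possible because no groups of samples were compared. The paired permutation test over clones set classes of region against each other within a clone. Sites under about 12 to 25 reads are not listed, so absence from a list does not show absence of the mark.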
